A study of Homo sapiens with 2 samples.

Results

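The genes of the centrosome and the centriole were read in U87 cells, an established human glioblastoma line, 2 days after transfection with HOXD9 siRNA-2 or with a control siRNA. Members were every gene whose symbol is CEP and a number, and the named duplication factors, matrix and satellite proteins, γ-tubulin ring proteins and HAUS subunits, where a probe set was annotated to that gene alone. They came to 58 genes with 164 probe sets, of 19775 genes and 54613 probe sets in all. HAUS4 and CEP170, read here only by probe sets annotated to several genes, were not analysed, and CENPJ, now named CPAP in RefSeq, was found through its former symbol.

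The HOXD9 siRNA array came from U87 cells given HOXD9 siRNA-2 at 50 nM, and the control siRNA array from U87 cells given a control siRNA at the same 50 nM. Both siRNAs were transfected with Lipofectamine RNAiMAX. There was 1 Affymetrix U133 Plus 2.0 array in each condition and 1 siRNA against HOXD9, so no error or test between conditions can be given, and an effect of this siRNA sequence cannot be told apart from the loss of HOXD9. The deposited values are linear signal intensities, 1 for each probe set, and all ratios are log2 of HOXD9 siRNA over control siRNA. HOXD9 itself gave signals of 5.58 and 11.4 with HOXD9 siRNA-2, against 19.7 and 9.33 with control siRNA, on 2 dim probe sets that did not pass the signal filter. Of the markers checked, VIM read 10823 with HOXD9 siRNA-2 against 11349 with control siRNA, CD44 5012 with HOXD9 siRNA-2 against 5638 with control siRNA and NES 70.6 with HOXD9 siRNA-2 against 116 with control siRNA, whereas GFAP, S100B and SOX2 stayed below the filter of 19.8, and so did 6 of 8 markers of other cell types. PECAM1 (40.3 with HOXD9 siRNA-2 against 43.4 with control siRNA) and EPCAM (23.8 with HOXD9 siRNA-2 against 28.2 with control siRNA) were the other 2 and lay low on both arrays.

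The centrosome is the main microtubule-organizing center of animal cells. It holds a pair of centrioles in a matrix that anchors γ-tubulin rings, from which microtubules grow. Each centriole is copied once per cell cycle, in step with DNA replication: PLK4 phosphorylates STIL, which brings in SASS6 to build the cartwheel of the new centriole. The older centriole carries appendages and can found a cilium, and the augmin complex of the HAUS proteins lets microtubules branch within the spindle. Glioblastoma cells, like other tumor cells, often carry extra centrosomes.

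All 58 members had a probe set whose mean signal reached the filter, the median of all probe sets (19.8), and 11624 of 19775 genes did. A gene was represented by the brightest of its probe sets above the filter. On these, 56 of 58 members read lower with HOXD9 siRNA-2, but the array as a whole read lower too, and 83.2% of all genes had a ratio under 0. The median log2 ratio was -0.37 for the members, with quartiles of -0.58 and -0.25, and -0.25 for all genes, with quartiles of -0.48 and -0.07. Of the 58 members, 43 (74.1%) lay below the median of all genes, a share that no common scaling of an array can change. When each array was centered on its own median, which adds 0.30 to every ratio, the medians were -0.07 for the members and 0.05 for all genes, and 38 of 58 members lay under 0, against 43.7% of all genes. The members were thus a little lower than the typical gene on either scale.

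Large differences were few. CEP95 alone of 58 members was lower by more than 2-fold, or 1.72%, where 4.95% of all genes were, and 0 members were higher by more than 2-fold, where 0.516% of all genes were. With both arrays centered, 0 members were past 2-fold downward, where 2.31% of all genes were, and 0 upward, where 1.17% were. At the smaller threshold of 1.5-fold, which was added after the values were seen, 14 members were lower (24.1%) against a background of 17.8%, and 1 after centering, CEP95 again, against 6.74%. A share near or under that of all genes gives no separate result for the members. The probe sets of one gene differed with a pooled SD of 0.39 over 43 members read by several probe sets (0.41 over 6081 genes). This spread cannot stand in for replicate error, because it holds no variation between cultures, transfections or arrays. A single ratio below is to be read against at least that spread.

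**Figure D1:**
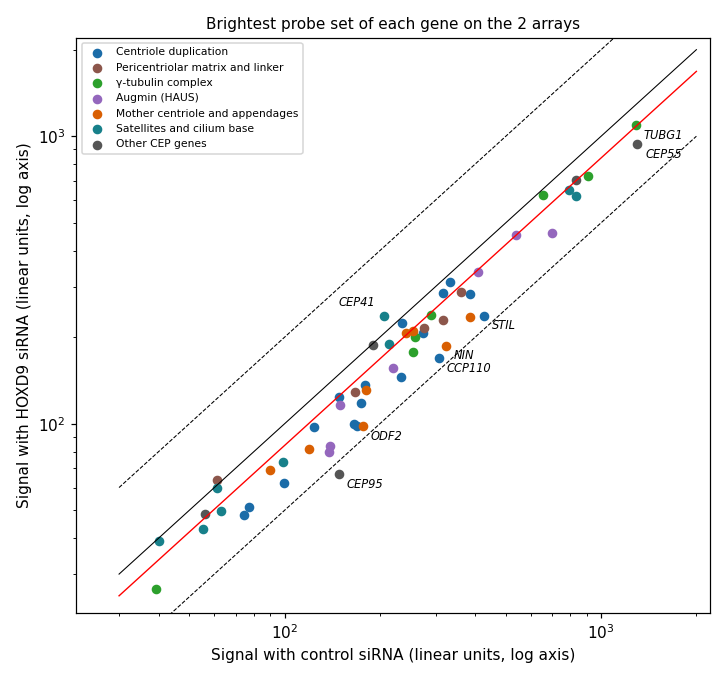
Each point is the brightest probe set of 1 member, with its signal on the HOXD9 siRNA array (y axis) and on the control siRNA array (x axis), both in linear units on log axes. The black line marks equal signals, the dashed lines 2-fold and the red line the median ratio of all genes (-0.25 on the log2 scale). Most points lie at or under the red line, and CEP95 alone lies past 2-fold.

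CEP95 had a signal of 66.7 with HOXD9 siRNA-2, against 148 with control siRNA, on the 1 of its 3 probe sets above the filter. Its log2 ratio was -1.15, or -0.85 after centering, and it read 45.0% of control. The other 2 probe sets gave 0.835 and 0.517 with HOXD9 siRNA-2, against 12.7 and 6.28 with control siRNA. All 4 of these signals lay within the background, taken as 18.4, the highest signal of 27 probe sets for Bacillus subtilis control transcripts on either array, and no fold is given for them. Of these, the 12.7 with control siRNA lay above 11.4, the highest control-transcript signal on its own array. So the only member past 2-fold rests on 1 probe set.

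Because CEP95 passed the threshold, the 300 bases around its annotated start are shown, from 250 before to 50 after it, with the same window of HAUS5, STIL and CCP110, low members of other roles, and of CEP41, the highest member. These 4 were chosen after their values were seen. Sequences are from RefSeq, GRCh38.p14, each read 5′ to 3′ on the strand of its gene, and capitals mark every match, on either strand, to the CHR element (TTTGAA or TTTAAA), the CCAAT box (CCAAT) or the E2F core (TTCCCGC or TTGGCGC). The windows are chr17:64506727-64507026 (plus strand) for CEP95, chr19:35612485-35612784 (plus) for HAUS5, chr1:47314098-47314397 (minus) for STIL, chr16:19523692-19523991 (plus) for CCP110 and chr7:130440967-130441266 (minus) for CEP41.
CEP95: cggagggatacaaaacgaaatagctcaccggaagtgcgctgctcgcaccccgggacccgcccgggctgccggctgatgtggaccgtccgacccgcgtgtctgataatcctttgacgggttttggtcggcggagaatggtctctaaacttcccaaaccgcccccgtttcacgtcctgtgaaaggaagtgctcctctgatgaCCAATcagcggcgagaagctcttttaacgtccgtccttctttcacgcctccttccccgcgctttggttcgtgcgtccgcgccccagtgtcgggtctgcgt
HAUS5: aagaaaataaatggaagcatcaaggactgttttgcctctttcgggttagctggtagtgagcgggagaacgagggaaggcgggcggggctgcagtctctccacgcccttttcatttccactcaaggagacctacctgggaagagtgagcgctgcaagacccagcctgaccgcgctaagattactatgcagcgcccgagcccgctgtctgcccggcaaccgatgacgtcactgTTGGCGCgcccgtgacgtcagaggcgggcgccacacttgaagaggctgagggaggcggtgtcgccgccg
STIL: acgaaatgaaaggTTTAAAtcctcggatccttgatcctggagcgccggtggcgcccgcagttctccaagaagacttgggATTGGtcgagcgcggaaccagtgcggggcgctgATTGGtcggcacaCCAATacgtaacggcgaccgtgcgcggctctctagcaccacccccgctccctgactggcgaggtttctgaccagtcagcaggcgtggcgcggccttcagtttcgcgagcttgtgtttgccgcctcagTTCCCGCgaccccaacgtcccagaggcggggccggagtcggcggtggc
CCP110: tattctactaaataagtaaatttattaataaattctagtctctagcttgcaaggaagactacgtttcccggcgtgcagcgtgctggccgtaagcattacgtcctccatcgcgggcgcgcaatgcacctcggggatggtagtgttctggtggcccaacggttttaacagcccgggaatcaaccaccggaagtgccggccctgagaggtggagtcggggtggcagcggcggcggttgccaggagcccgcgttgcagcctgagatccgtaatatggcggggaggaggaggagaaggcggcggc
CEP41: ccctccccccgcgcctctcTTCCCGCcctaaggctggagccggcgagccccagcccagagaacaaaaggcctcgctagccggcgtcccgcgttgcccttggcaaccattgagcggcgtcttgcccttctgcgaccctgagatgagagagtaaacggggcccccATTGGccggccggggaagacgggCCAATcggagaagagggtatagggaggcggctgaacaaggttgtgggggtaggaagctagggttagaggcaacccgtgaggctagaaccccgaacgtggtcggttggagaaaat

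Counted from the first base of the window, the CEP95 window held 1 CCAAT box, at position 201, and no match to the CHR element or the E2F core. HAUS5 held an E2F core at position 232. STIL held a CHR element at position 14, CCAAT boxes at positions 80, 113 and 126, and an E2F core at position 253, and CCP110 held no match. CEP41, the member with the highest ratio, had 2 CCAAT boxes, at positions 164 and 187, and an E2F core at position 20. A link between these words and the ratios was not tested. The annotated start of DDX5, an RNA helicase gene on the other strand, lies 339 bases from that of CEP95. DDX5 read 148 with HOXD9 siRNA-2, against 211 with control siRNA, a log2 ratio of -0.51 (-0.21 after centering). This value rests on 1 probe set above the filter.

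The E2F core was common among the members. Windows were found for 53 of the 58 genes, and 23 (43.4%) had the core in at least 1 window, whereas 1692 of 9518 genes above the filter with a window (17.8%) did. By window, 26 of 71 of the members held it (36.6%), against 13.3% of 13940 windows of genes above the filter and 9.23% of all 35116. The CHR element stood in 32.4% of the members' windows, 17.8% of those of genes above the filter and 24.0% of all, and the CCAAT box in 40.8%, 35.1% and 34.6% of the same sets. A match to so short a word is no binding site by itself. The median ratio was -0.36 for the 23 members with the core and -0.40 for the 30 without it. For all genes it was -0.30 with the core and -0.24 without it.

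Genes of centriole duplication and length had the lowest median of the 7 role groups as deposited, an order that centering cannot change, but not under all settings. Their median log2 ratio was -0.56 over 17 genes (-0.26 after centering), 14 of the 17 (82.4%) lay below the median of all genes and 7 were lower by more than 1.5-fold, where 17.8% of all genes were. After centering 0 of the 17 were. With all probe sets of a gene averaged, the median was -0.54, and the matrix genes were lower at -0.57. CCP110, which caps the ends of centrioles, had signals of 169 and 17.9 with HOXD9 siRNA-2, against 307 and 51.1 with control siRNA. Both probe sets read lower, with a log2 ratio of -0.86 on the brighter one. On the dimmer one the HOXD9 siRNA-2 signal was within the background, and CCP110 was at least 2.78-fold lower, or at least 2.26-fold after centering. STIL, the scaffold that PLK4 phosphorylates, read 238 with HOXD9 siRNA-2, against 426 with control siRNA, a log2 ratio of -0.84 on its single probe set.

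The structural proteins of the new centriole also read lower as deposited on their brightest probe sets, where 83.2% of all genes did. After centering those ratios were -0.32 for SASS6, -0.38 for CEP135, -0.39 for CENPJ and -0.28 for CEP295. SASS6, the cartwheel protein, gave 48.2 with HOXD9 siRNA-2 against 74.3 with control siRNA (-0.62), and CEP135, which joins the cartwheel to the centriole wall, 62.1 with HOXD9 siRNA-2 against 99.6 with control siRNA (-0.68). CENPJ, which lengthens centriolar microtubules, gave 145, 75.1 and 37.6 with HOXD9 siRNA-2, against 234, 107 and 27.0 with control siRNA, so that 2 probe sets read lower and the dimmest higher (-0.69, -0.51 and 0.48). CEP295, needed for a new centriole to recruit matrix, read 51.5 and 16.8 with HOXD9 siRNA-2, against 77.1 and 28.4 with control siRNA. Its ratio was -0.58 on the brighter probe set, and it was at least 1.54-fold lower on the dimmer one. CEP85, a STIL-binding protein, gave 97.9 and 68.4 with HOXD9 siRNA-2, against 169 and 80.7 with control siRNA, and CEP76, which restrains reduplication, 99.7 and 108 with HOXD9 siRNA-2 against 166 and 139 with control siRNA. These pairs ran in one direction but differed in size, from -0.79 to -0.24 for CEP85 and from -0.73 to -0.37 for CEP76.

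PLK4, the kinase that starts duplication, stood above its group. It gave 284, 127 and 69.2 with HOXD9 siRNA-2, against 316, 154 and 113 with control siRNA, or log2 ratios of -0.15, -0.28 and -0.70. The proteins that recruit PLK4 to the centriole lay near it, with -0.26 for CEP192 and -0.09 for CEP63 on the brightest probe sets. CEP152, the third of these, read 225 with HOXD9 siRNA-2 against 235 with control siRNA (-0.06) on its brightest probe set, but 40.6 with HOXD9 siRNA-2 against 71.5 with control siRNA (-0.82) on the next. On its 2 dimmest probe sets above the filter CEP152 was at least 2.06-fold and at least 2.21-fold lower as deposited, and at least 1.68-fold and 1.79-fold after centering. Which CEP152 value stands for the gene therefore depends on the probe set. CEP97, the partner of CCP110, split in the same way, with ratios of -0.35, 0.25 and -1.02, the first and last from probe sets that may bind several transcripts. CEP57, which forms a complex with CEP63 and CEP152, read lower on all 5 of its probe sets (-0.84 to -0.22), and CEP78, at the mother centriole, on all 3 (-0.70 to -0.45), its brightest reading 282 with HOXD9 siRNA-2 against 385 with control siRNA. CEP44 (-0.40) and CEP120 (-0.40) complete the 17 genes.

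**Figure D2:**
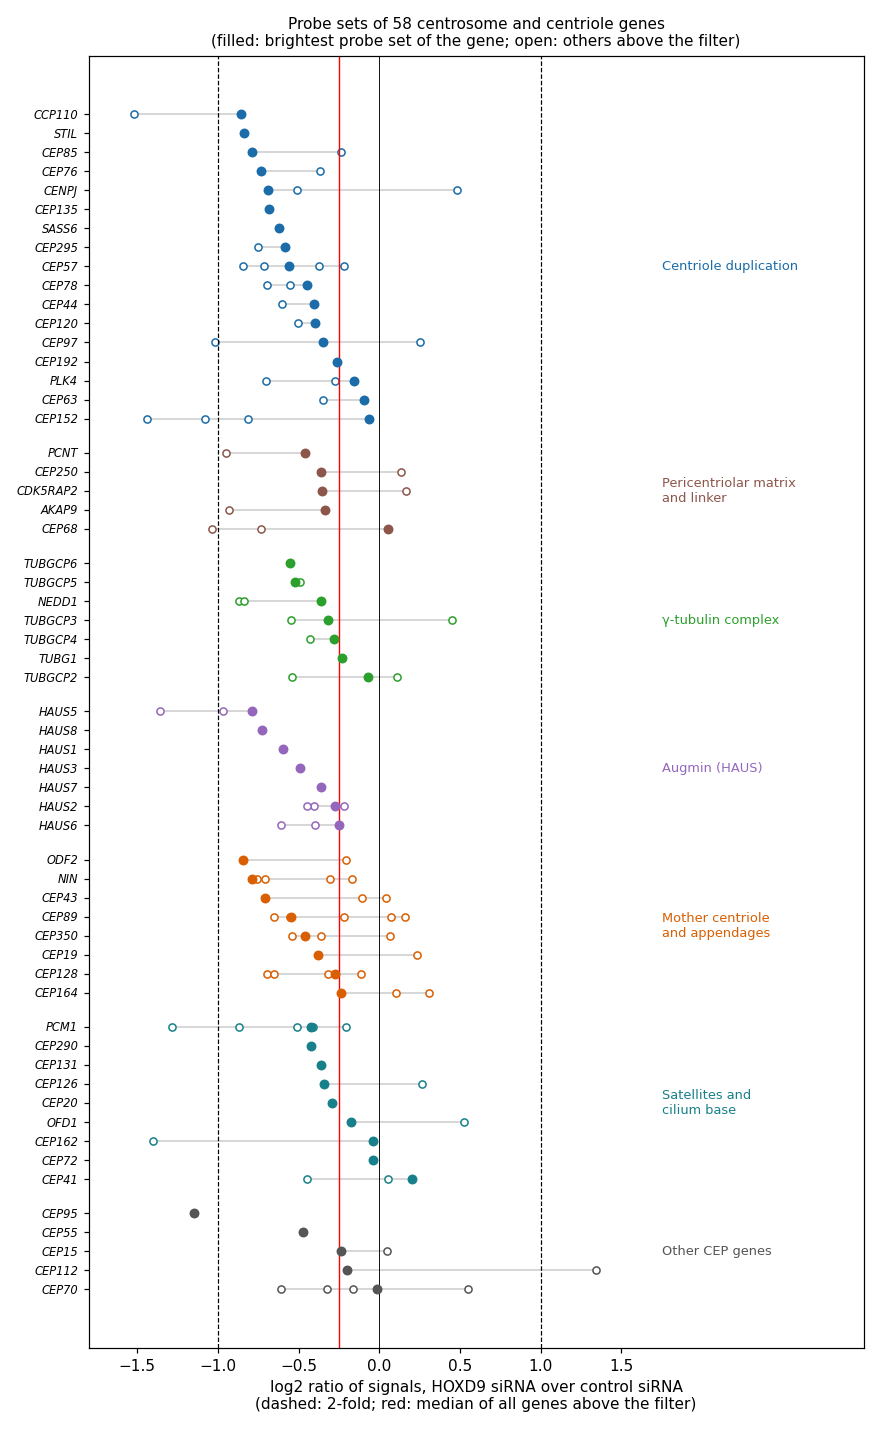
Each row is 1 of 58 genes, grouped by role, and each point the log2 ratio (x axis, HOXD9 siRNA over control siRNA) of 1 probe set above the signal filter, filled for the brightest of the gene and open for the others. Dashed lines mark 2-fold and the red line the median of all genes, -0.25. The filled points for duplication run from -0.86 for CCP110 to -0.06 for CEP152, and 9 probe sets of all members lie below -1.

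On the brightest probe sets, the matrix that surrounds the centrioles differed less from the typical gene. Its 5 genes, counted with the linker that ties both centrioles together, had a median of -0.35 (-0.05 after centering). With all probe sets of a gene above the filter averaged, the median was -0.57, the lowest of the role groups. That of all genes was then -0.27, so the place of this group depends on the probe sets used. PCNT, the pericentrin scaffold, gave 230 and 15.3 with HOXD9 siRNA-2, against 317 and 29.6 with control siRNA, a ratio of -0.46 on the brighter probe set and a bound of at least 1.61-fold lower on the dimmer one. AKAP9, which anchors kinases and γ-tubulin, read 287 with HOXD9 siRNA-2 against 362 with control siRNA (-0.34), with a bound of at least 1.71-fold lower on a dimmer probe set. CDK5RAP2, which activates γ-tubulin rings, had probe sets of opposite sign, 215 and 229 with HOXD9 siRNA-2 against 275 and 204 with control siRNA (-0.35 and 0.17). CEP250, a linker protein, likewise gave -0.36 and 0.14. CEP68, also of the linker, read 63.6, 45.7 and 21.1 with HOXD9 siRNA-2, against 61.2, 75.9 and 43.3 with control siRNA, so its ratio went with the probe set (0.06, -0.73 and -1.03).

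The γ-tubulin ring genes were close to the median of all genes, at -0.32 over 7 genes (-0.02 after centering). Of the 7, 0 were lower by more than 1.5-fold, where 17.8% of all genes were. TUBG1, which encodes γ-tubulin, read 1094 with HOXD9 siRNA-2, against 1285 with control siRNA (-0.23). TUBGCP2 and TUBGCP3, the core of the ring with TUBG1, gave ratios of -0.07 and -0.32 on their brightest probe sets, and each had 1 of 3 probe sets above 0. TUBGCP4 stood at -0.28, TUBGCP5 at -0.53 (177 with HOXD9 siRNA-2 against 255 with control siRNA) and TUBGCP6, read at only 26.7 with HOXD9 siRNA-2 against 39.2 with control siRNA, at -0.56. NEDD1, which brings the ring to the centrosome, gave 201, 138 and 66.1 with HOXD9 siRNA-2, against 258, 252 and 118 with control siRNA. Its 3 ratios were -0.36, -0.87 and -0.84, so that NEDD1 was lower on every probe set and least so on the brightest.

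Augmin subunits read lower on all 14 probe sets above the filter, where 81.9% of all probe sets did, and after centering on 11 of the 14, the exceptions belonging to HAUS2 and HAUS6. The median was -0.49 over 7 genes (-0.19 after centering), and 3 of the 7 were lower by more than 1.5-fold, beside 17.8% of all genes, and 0 after centering. HAUS5 gave 79.9, 45.2 and 17.0 with HOXD9 siRNA-2, against 138, 88.7 and 43.5 with control siRNA. Its ratios were -0.79 and -0.97, and it was at least 2.37-fold lower on the dimmest probe set, or at least 1.92-fold after centering. HAUS8, the subunit that binds microtubules, read 84.0 with HOXD9 siRNA-2 against 139 with control siRNA (-0.73), HAUS1 462 with HOXD9 siRNA-2 against 699 with control siRNA (-0.60) and HAUS3 156 with HOXD9 siRNA-2 against 220 with control siRNA (-0.49), each on 1 probe set. HAUS7 (-0.36, on a probe set that may bind several transcripts), HAUS2 (-0.45 to -0.22 over 4 probe sets) and HAUS6 (-0.61 to -0.25 over 3) completed the complex as read here. The subunits of a single complex thus spanned -0.79 to -0.25 on their brightest probe sets.

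Genes of the mother centriole and its appendages had a median of -0.50 over 8 genes (-0.20 after centering), but many of their probe sets disagreed. When the probe sets of each gene were averaged, the median was -0.31. ODF2, needed for both kinds of appendage, read 98.3 and 63.7 with HOXD9 siRNA-2, against 177 and 73.5 with control siRNA (-0.85 and -0.21). NIN, which anchors microtubules at the subdistal appendages, was lower on all 5 probe sets above the filter. Its brightest gave 187 with HOXD9 siRNA-2 against 323 with control siRNA (-0.79), and the others ranged from -0.76 to -0.17. CEP43, which docks at the distal centriole with CEP350 and CEP19, read 236, 251 and 164 with HOXD9 siRNA-2, against 385, 244 and 177 with control siRNA. The first, at -0.71, is a probe set that may bind several transcripts, and the next gave 0.04, with -0.11 on the last, so that its low value rests on that 1 probe set. CEP89, a distal appendage protein, gave -0.55 on its brightest probe set and from -0.65 to 0.16 over 6. CEP164, the distal appendage protein that starts cilium formation, had -0.23, 0.10 and 0.31. The remaining ratios on the brightest probe sets were -0.46 for CEP350, -0.38 for CEP19 and -0.27 for CEP128.

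Satellite and cilium-base genes lay close to all genes, with a median of -0.29 over 9 genes (0.01 after centering). Of the 9, 0 were lower by more than 1.5-fold, where 17.8% of all genes were. PCM1, the scaffold of the satellites that carry proteins to the centrosome, read lower on all 6 probe sets. Its brightest gave 622 with HOXD9 siRNA-2 against 835 with control siRNA (-0.43), and on its dimmest it was at least 2.13-fold lower, or at least 1.73-fold after centering. CEP290, of the transition zone of the cilium, read 73.8 with HOXD9 siRNA-2 against 98.8 with control siRNA (-0.42), CEP131 43.1 with HOXD9 siRNA-2 against 55.4 with control siRNA (-0.36) and CEP126 49.6 with HOXD9 siRNA-2 against 62.9 with control siRNA (-0.34), the last 2 being satellite proteins. CEP20 had -0.29 and -0.30 on 2 probe sets, whose agreement was the closest among the members. OFD1, a satellite and distal centriole protein, gave -0.17 and 0.52, and CEP72 gave -0.04. CEP162, of the transition zone, read 39.2 with HOXD9 siRNA-2 against 40.3 with control siRNA (-0.04) on one probe set. On the other its signals were 12.5 with HOXD9 siRNA-2 against 32.9 with control siRNA, a bound of 1.79-fold lower, or 1.45-fold after centering. CEP41, which promotes tubulin glutamylation in cilia, was the highest member on the brightest probe sets, with 238, 190 and 32.3 with HOXD9 siRNA-2, against 206, 183 and 44.2 with control siRNA, or 0.21, 0.05 and -0.45.

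Of the remaining CEP genes, CEP55 acts in the final cut between daughter cells and not in centriole copying. It read 940 with HOXD9 siRNA-2, against 1303 with control siRNA, a log2 ratio of -0.47 (-0.17 after centering). CEP15 gave -0.24 and 0.05. CEP112 was the only member with a probe set above the filter and higher by more than 2-fold, 30.2 with HOXD9 siRNA-2 against 11.9 with control siRNA, where the control siRNA signal lay within the background of 18.4, though above the 11.4 that was the highest control-transcript signal on its own array. It was at least 1.64-fold higher there, and at -0.20 on its brighter probe set. CEP70, a γ-tubulin-binding protein, had ratios of -0.32 to 0.55 on 4 probe sets, with the brightest at -0.02 (188 with HOXD9 siRNA-2 against 190 with control siRNA). A dim probe set gave 17.5 with HOXD9 siRNA-2 against 26.7 with control siRNA, a bound of 1.45-fold lower.

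Over all probe sets above the filter, 119 of the members' 140 (85.0%) read lower and 21 higher, and 81.9% of all probe sets read lower. After centering 89 (63.6%) of the members' lay under 0, against 47.4% of all. By more than 2-fold, 9 (6.43%) were lower, where 6.69% of all probe sets were, and 1 (0.714%) was higher, where 0.615% were. After centering 4 of the 140 were lower by more than 2-fold, beside 2.94% of all. These 4 were probe sets of CCP110, HAUS5, CEP152 and CEP162, each with its HOXD9 siRNA-2 signal within the background. Their bounds after centering were 2.26-fold, 1.92-fold, 1.79-fold and 1.45-fold, so only that of CCP110 stayed past 2-fold. The 9 as deposited belonged to CEP95, CCP110, CEP152 (2 of them), HAUS5, CEP162, PCM1, CEP68 and CEP97, and in 6 of them the HOXD9 siRNA array read no higher than the background. Of 43 members with several probe sets above the filter, 25 (58.1%) were lower on all of them, against 62.8% of all such genes, and after centering 11 (25.6%) were, against 21.2%. These 11 were AKAP9, CCP110, CEP120, CEP295, CEP44, CEP76, CEP78, HAUS5, NEDD1, PCNT and TUBGCP5. Of the 43, 0 were higher on all their probe sets, and 3.08% of all such genes were.

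Related genes outside the members showed a like level. Of 46 further centrosome genes, 42 passed the filter, with a median of -0.36 (-0.06 after centering), and 0 were past 2-fold, where 4.95% of all genes were lower and 0.516% higher. The lowest were CEP57L1 (37.1 with HOXD9 siRNA-2 against 70.2 with control siRNA, -0.92), RTTN, needed for full-length centrioles (159 with HOXD9 siRNA-2 against 286 with control siRNA, -0.85), MPHOSPH9, which recruits the CCP110 and CEP97 cap (106 with HOXD9 siRNA-2 against 189 with control siRNA, -0.84), and SCLT1, a distal appendage gene (61.1 with HOXD9 siRNA-2 against 108 with control siRNA, -0.82). A list of 24 regulators of the centrosome cycle, mostly but not only kinases, cyclins and ubiquitin ligases, had a median of -0.31. In it 2 were lower by more than 2-fold (4.95% of all genes) and 0 higher (0.516%). CCNE2, a cyclin that with CDK2 licenses centriole duplication, read 194 with HOXD9 siRNA-2 against 424 with control siRNA (-1.13), and SGO1, which guards cohesin, 46.5 with HOXD9 siRNA-2 against 101 with control siRNA (-1.12), both short of 2-fold after centering (-0.83 and -0.82). CDK1 gave -0.73 and CCNE1 -0.69.

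Cell cycle genes were low as well, and those of G1/S lower than the members. A list of 23 genes of G1/S and DNA replication, which shares CCNE1 and CCNE2 with the regulators, had a median of -0.72 (-0.42 after centering). Of the 23, 22 lay below the median of all genes. The exception, E2F1, read higher, 200 with HOXD9 siRNA-2 against 154 with control siRNA (0.38, or 0.68 after centering). In this list 4 genes were lower by more than 2-fold, beside 4.95% of all genes, and 0 higher, beside 0.516%. After centering only CDT1 was past 2-fold. The 4 were CDT1, which licenses replication origins with CDC6 (204 with HOXD9 siRNA-2 against 635 with control siRNA, -1.63), CCNE2, CDC6 (154 with HOXD9 siRNA-2 against 335 with control siRNA, -1.12) and CDC45, of the replicative helicase (127 with HOXD9 siRNA-2 against 270 with control siRNA, -1.09). A list of 24 G2/M and mitosis genes, which shares AURKA, CCNA2, CDC20, CDK1 and PLK1 with the regulators, had a median of -0.41 (-0.11 after centering), close to the members. Of these 24, 0 were past 2-fold, where 4.95% of all genes were lower and 0.516% higher. Its lowest were UBE2C, a ubiquitin carrier of the anaphase-promoting complex (1316 with HOXD9 siRNA-2 against 2436 with control siRNA, -0.89), CDCA3 at -0.77, KIF23 at -0.75 and CDK1. The part of these cell cycle genes in the members' values was not tested. In RNA from a whole culture, fewer cells in S phase and less RNA per cell cannot be told apart.

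**Figure D3:**
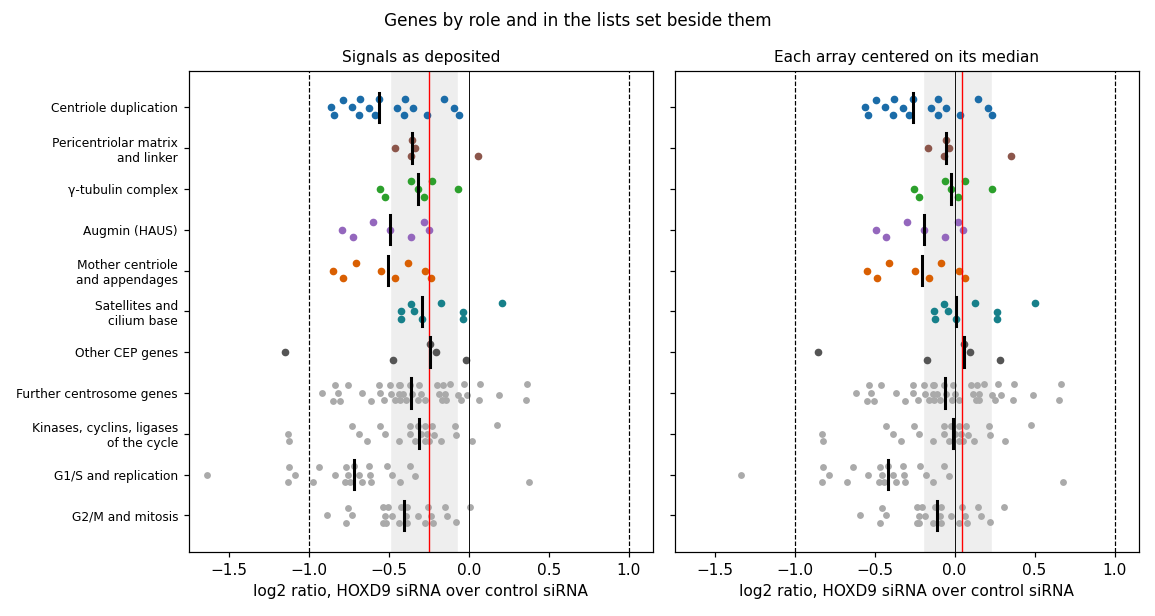
Each point is the log2 ratio (x axis, HOXD9 siRNA over control siRNA) of 1 gene on its brightest probe set, by role of the members (colored) and for 4 lists set beside them (gray), with the signals as deposited (left) and with each array centered on its median (right). Black bars mark medians, gray bands the interquartile range of all 11624 genes, the red line their median and dashed lines 2-fold. All bars but that of the other CEP genes (-0.24 on the left) lie left of the red line. Among the roles, those of centriole duplication (-0.56), augmin (-0.49) and the mother centriole (-0.50) lie farthest from it. That of G1/S and replication (-0.72) lies farther left.

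**Figure D4:**
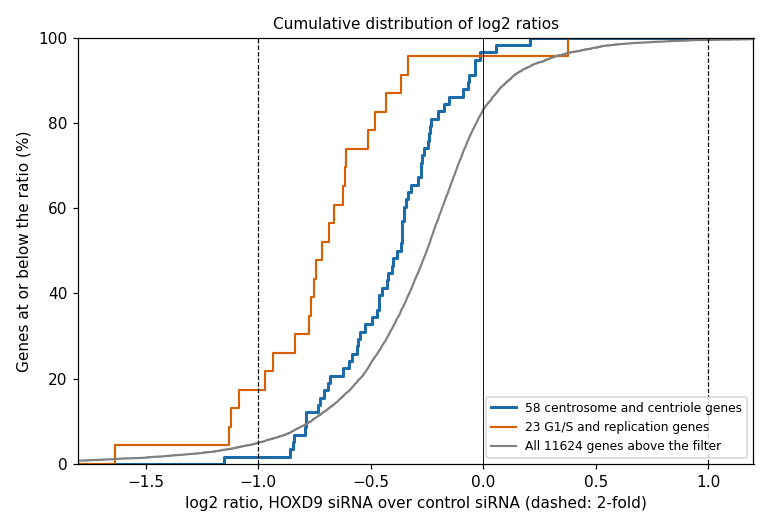
The share of genes at or below a log2 ratio (y axis, %) is drawn against that ratio (x axis, HOXD9 siRNA over control siRNA) for the 58 members, 23 G1/S and replication genes and all 11624 genes above the filter. At -0.25, 74.1% of the members and 50.0% of all genes lie below, and past -1 stand 1 member and 4.95% of all genes.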

How the data were processed

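Total RNA of U87 cells was hybridized to 1 Affymetrix U133 Plus 2.0 array per condition. The authors deposited 1 linear signal intensity for each probe set, made with GCOS according to the submitters' processing notes. Scaling target and detection calls: not given in the sources used here. Median signals were 18.3 (HOXD9 siRNA) and 22.5 (control siRNA). With so few arrays, precision is limited throughout.

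After 62 control probe sets were set aside, log2 ratios were computed for 54613 probe sets, of which 41091 had 1 annotated gene, 1801 several and 11721 none listed. Entrez numbers matched RefSeq (GRCh38.p14) for 41037. Probe sets averaging at least 19.8 over both arrays were used, and the brightest represented its gene. The 2-fold threshold follows the study's methods. Where 1 of both signals lay at or under 18.4, the fold is given as a bound against 18.4 (20.4 after centering). Members, role groups and lists were chosen with earlier results of these arrays known. Named genes were the 4 largest ratios and the brightest gene of each role, and members with a probe set past 2-fold or probe sets beyond 0.5 in both directions, and the 4 largest ratios of each other list. The other members are named for completeness. Only CEP95 had its promoter chosen by rule.

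On simulated arrays of 54613 probe sets, 100 of 100 raised and 100 of 100 lowered 4-fold were found. Those changes were planted in bright probe sets only and were far past the 2-fold threshold. The simulated noise was smaller than the spread among real probe sets of one gene. The simulation therefore checks the calculation and does not show that changes as small as the members' would be found. Python 3.11.15, numpy 2.4.6, pandas 2.3.3, statsmodels 0.14.6 (loess) and matplotlib 3.10.9 were used.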

Additional observations from a re-analysis of the deposited data

How the results depend on the processing

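The count of members lower by more than 2-fold was 1 as deposited (4.95% of all genes). It was 0 when each array was centered (2.31% of all genes), 0 after quantile normalization (2.24%) and 0 after removal of a loess trend (2.25%). When all probe sets of a gene above the filter were averaged, it was 3 (CEP95, CCP110 and HAUS5), beside 4.53% of all genes. At 1.5-fold, a threshold added after the data were seen, it was 14, beside 17.8% of all genes. The count higher past the same thresholds was 0 under all of these, where 0.508% to 1.63% of all genes were. The median of the members, -0.37 as deposited, was -0.0729 with centering, -0.0576 with quantile normalization and -0.0696 with loess, beside 0.05, 0.03 and 0.02 for all genes. No filter, a stricter filter (75.7), a floor at the background, leaving out _x_at probe sets with or without _s_at ones, and the symbols as listed moved neither count and kept the median between -0.40 and -0.36. No filter and the floor could not move them, because every member's brightest probe set lay above the filter and, on both arrays, above the background. Under these settings the share of all genes lower by more than 2-fold ran from 2.46% (stricter filter) to 15.7% (no filter). The share higher ran from 0% to 8.93% under the same settings. Only 49 members passed the stricter filter, and 45 were left without _x_at and _s_at probe sets. A steady count is therefore not a steady share. Of 35 named members, 28 lay below 0 with centering, 28 with quantile normalization and 29 with loess. Most of the 35 were named for large ratios on these same arrays, so these counts are no separate support. Of all 58 members, 38 lay below 0 with centering, against 43.7% of all genes. Signal over background limits the dim probe sets, where only bounds are given. No paired analysis was possible because there is 1 array in each condition. Centering, no filter and the floor could not change the order of the group medians. With these included, centriole duplication had the lowest of the group medians under 7 of 11 settings. The exceptions were the symbols as listed (level with the mother centriole at -0.50), averaged probe sets (matrix and linker, -0.57 against -0.54), the stricter filter (mother centriole, -0.50 against -0.45) and leaving out _x_at and _s_at ones (matrix and linker, -0.65 against -0.60).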
